A study of Rattus norvegicus with 48 samples.

Results

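The glomerulus and the collecting duct stand at opposite ends of the nephron, and their mature miRNAs were compared here in small RNA cut from rat kidney sections by laser capture. The comparison takes 5 of the 11 libraries used here, which are 2 of glomerulus (rats 1 and 3) and 3 of collecting duct (rats 1, 2 and 3), chosen by the kidney region in their labels. All 188 mature miRNAs of the deposited table were compared. Both groups came from naive adult male Sprague-Dawley rats aged 6 months, so no treatment, genotype or age separates them. Tissue was frozen, cut at 8 µm and captured with a laser. Collecting ducts were recognised by antibody fluorescence against aquaporin-2, the water channel of their principal cells, and glomeruli by a histochemical stain under light, so the stain and the segment cannot be told apart. The other 6 libraries, 3 each of proximal tubule and thick ascending limb of Henle's loop from the same animals, entered the model and are set beside the differences below. A further glomerulus library that its submitters marked as removed is not analysed here. It is labelled rat 3 as well, and no glomerulus library carries the label of rat 2, so the pairing of the rat 3 glomerulus below rests on a label that 2 libraries share.

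The glomerulus is the filter of the nephron, a tuft of capillaries in which endothelial cells, mesangial cells related to smooth muscle, and podocytes lie close together. The collecting duct is a tubule of polarised epithelium, made of principal cells that take up water and salt and intercalated cells that move acid and base. A miRNA guides silencing proteins to messenger RNAs that pair with its seed (bases 2 to 8 from the 5′ end), so miRNAs with the same seed can share targets, and several miRNA families are known as marks of epithelium, endothelium or smooth muscle. The assay read no messenger RNA, so the protein-coding genes that define podocytes and principal cells were not measured, and a captured region mixes the cell types in it.

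The sequences below belong to miRNAs whose values separated the segments, with the seed in capitals. They come from RefSeq (build GRCr8), where 172 of the 188 miRNAs were matched by name. The first set was lower in the glomerulus than in the collecting duct, except that miR-96-5p did not pass the test and miR-183-5p is not analysed here. miR-96-5p is shown because it lies beside miR-182 and is close to it in its seed, and miR-183-5p, in lower case throughout, because RefSeq places it on the opposite strand of miR-3553.
miR-182: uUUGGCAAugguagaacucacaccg
miR-96-5p: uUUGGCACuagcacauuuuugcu
miR-3553: cAGUGAAUucuaccagugccaua
miR-183-5p: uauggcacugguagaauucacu
miR-141-3p: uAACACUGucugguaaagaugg
miR-375-3p: uUUGUUCGuucggcucgcguga
miR-672-5p: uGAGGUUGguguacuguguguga

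A second set was lower in the glomerulus and higher in the collecting duct than in the other tubule segments. miR-92b-3p is shown with miR-92a-3p and miR-25-3p, which have its seed.
miR-31a-5p: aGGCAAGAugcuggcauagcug
miR-205: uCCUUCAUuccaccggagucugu
miR-9a-5p: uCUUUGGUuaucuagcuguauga
miR-92b-3p: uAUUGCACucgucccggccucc
miR-92a-3p: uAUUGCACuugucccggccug
miR-25-3p: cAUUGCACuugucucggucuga

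The third set was higher in the glomerulus. miR-351-5p is shown with miR-125a-5p and miR-125b-5p, which have the same seed and other bases beyond it.
miR-351-5p: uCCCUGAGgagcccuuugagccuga
miR-125a-5p: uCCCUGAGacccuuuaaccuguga
miR-125b-5p: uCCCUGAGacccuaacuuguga
miR-149-5p: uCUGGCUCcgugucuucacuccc
miR-138-5p: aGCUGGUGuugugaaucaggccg

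The libraries differed in depth and level before any miRNA was compared. Estimated from the spacing of low values, the 188 miRNAs rested on 807908 and 147996 reads in the glomeruli of rats 1 and 3, and on 744043, 788818 and 631113 in the collecting ducts of rats 1, 2 and 3. The summed normalized value was 165055 and 77457 in the glomeruli and ran from 183748 to 255518 in the collecting ducts. Thus the glomerulus of rat 3 was the shallowest and the lowest library, and 51 miRNAs were at 0 in its 4 runs, against 30 in rat 1 and 14 to 36 in the collecting ducts. Its part in the results was not tested as a cause, and results that rest on it are given without it below. Values are those the authors normalized by the trimmed mean of M-values (TMM), averaged over 4 runs of a library, and are listed by rat in the order 1 and 3 for glomerulus and 1, 2 and 3 for collecting duct. Differences are glomerulus minus collecting duct on the log2(value + 1) scale with the standard error (SE), and a miRNA was called where limma's two-sided p, adjusted by the Benjamini-Hochberg method over 188 miRNAs, was below 0.05. The prior degrees of freedom of the fit were 105.9. Each p and SE therefore rests mainly on variance shared across miRNAs, and little on the spread of that miRNA's own libraries.

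Of 188 miRNAs, 19 were called (10.1% of those tested), 16 lower in the glomerulus (8.51%) and 3 higher (1.6%). At an unadjusted p below 0.05 there were 32, of which 26 were lower and 6 higher. The median difference of all 188 was −0.629, with 123 below 0 and 64 above, so a miRNA near that median did not stand apart from the rest of the table. Glomerulus and collecting duct libraries did not overlap for 69 miRNAs (36.7%), 48 of them lower in the glomerulus (25.5%) and 21 higher (11.2%). Among the 19 called, 18 did not overlap, miR-423-5p being the exception, and 18 had the same sign within rat 1 and within rat 3. The split between directions depended on scaling. After rescaling by the median of ratios, to the same total or by quantiles, the median became −0.101, 0.127 and 0.0981, and the calls were 18 lower and 15 higher, 16 and 17, and 15 and 17. In these 3 rescalings 13 miRNAs were lower every time and 11 were higher every time. Without the glomerulus of rat 3 the values as deposited gave 10 calls (9 lower, 1 higher) and a median of −0.00694, and without that of rat 1 they gave 22 (21 lower, 1 higher) and a median of −1.34.

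**Figure D1:**
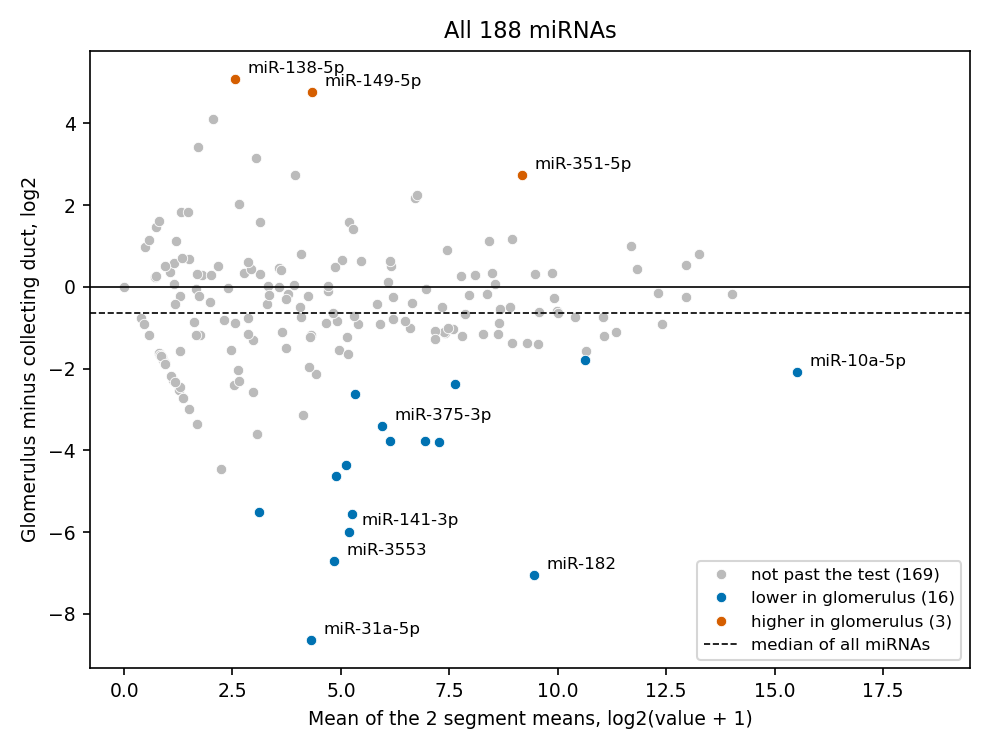
Difference between glomerulus and collecting duct for each of 188 miRNAs (vertical axis, log2) against the mean of the 2 segment means (horizontal axis, log2(value + 1)); colours mark the 16 lower and 3 higher miRNAs past the test. The dashed line is the median of all miRNAs, −0.629, and miR-31a-5p, at −8.64, lies farthest from it.

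The most abundant miRNA of both segments, miR-10a-5p, took a smaller part of the glomerular profile. This miRNA lies in a Hox gene cluster and is known in the kidney as an abundant tubular miRNA. It made up 22.8% and 18.1% of the summed values in the glomeruli of rats 1 and 3, against 50.5%, 46.8% and 43.7% in the collecting ducts. Its values were 37565 and 14049 in the glomeruli and 92718, 119558 and 81729 in the collecting ducts, so that the groups did not overlap. The difference was −2.08 (SE 0.66, adjusted p = 0.0262), and with the rat as a replicate block it was −2.11 (adjusted p = 0.061), which ends the call. Without the glomerulus of rat 3 it was −1.36 (adjusted p = 0.886), and the call was also lost without the collecting duct of rat 2 (adjusted p = 0.0604) and without the proximal tubule of rat 1 (adjusted p = 0.0593). Quantile normalization gives the top miRNA of every library the same value and so leaves no difference to test. The proximal tubules had 37746.5, 39998 and 56750 and the thick ascending limbs 70201, 56313 and 85747. The glomerulus was not called against either, and the collecting duct was called higher than the proximal tubule. The other arm of the hairpin, miR-10a-3p, had 16.2 and 6.20 against 67.2, 28.6 and 47.3 and a difference of −2.14 that was not called (adjusted p = 0.355).

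Mature miRNAs are of like length, so their values can be ranked within a library. Next in rank in both segments came miR-22-3p, with a mean share of 13.8% ± 0.920 (SD, n = 2) in the glomerulus and 8.57% ± 1.01 (n = 3) in the collecting duct and a difference of −0.18 in value (adjusted p = 0.927). The glomerular ranking went on with miR-143-3p (11.6%), miR-27b-3p (8.50%) and miR-26a-5p (6.50%), which held 3.66%, 3.23% and 4.19% in the collecting duct. In the collecting duct the next place belonged to miR-182, at 4.23% ± 1.76 (n = 3), followed by miR-26a-5p and miR-191a-5p. miR-182 ranked 65th in the glomerulus, with 0.0583% ± 0.0319 (n = 2).

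miR-182 belongs to a cluster with miR-96 and miR-183 that is transcribed as a unit and is known from sensory cells and other epithelia. Its values were 58.9 and 62.6 in the glomeruli and 4192, 14580.1 and 8811 in the collecting ducts. Both glomerular values were close to each other and far below every collecting duct value. The difference was −7.06 ± 0.61 (SE, adjusted p = 1.5e-18). Without the glomerulus of rat 1 it was −7.02 and without that of rat 3 −7.09, so that the difference was as large without the shallow library. Over 16 alternative settings of the fit and scaling the adjusted p for miR-182 reached 0.0142. In a bulk sample such as a captured region, fewer cells that make a miRNA and less of it per cell cannot be told apart, here and in the results that follow.

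The neighbour of miR-182, miR-96-5p, was listed at 0 in both glomeruli and at 6.81, 28.4 and 49.6 in the collecting ducts. Its groups did not overlap, but at these low levels the difference of −4.46 ± 1.75 (SE) was not called (adjusted p = 0.107). miR-3553 had 7.15 and 0 in the glomeruli and 162, 525 and 288 in the collecting ducts, a difference of −6.71 ± 0.83 (SE, adjusted p = 6.4e-11). Over the 16 settings its adjusted p reached 0.0298. RefSeq sets miR-3553 over 22 bases of miR-183-5p on the other strand, within its reverse complement, and whether reads were counted by strand is not given in the sources used here. Reads of miR-3553 and of miR-183-5p, which is not analysed here, therefore cannot be told apart. In the collecting ducts the value of miR-3553 was 3.87%, 3.60% and 3.26% of that of miR-182, and in the proximal tubules and thick ascending limbs it lay between 4.51% and 7.27%. Leaving out the glomerulus of rat 1 or 3 gave −8.19 and −5.23, the first resting on a library at 0.

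The miR-200 family represses the transcription factors ZEB1 and ZEB2 and so helps to maintain epithelium. It was lower in the glomerulus in 4 of its 5 measured members, and none was higher. All 5 had differences below 0 and groups that did not overlap, and their median was −3.78 against −0.629 for all miRNAs. The summed value of the family was 133 and 36.1 in the glomeruli and 1170.4, 1612 and 839 in the collecting ducts. The same 4 of 5 were called lower, with all 5 below 0, after each of the 3 rescalings. With glomerulus and collecting duct fitted alone, 2 of the 5 stayed called, since miR-200a-3p (adjusted p = 0.181) and miR-200b-3p (adjusted p = 0.0679) were lost.

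Within the family the separation was widest for miR-141-3p, with 4.71 and 2.89 in the glomeruli and 251, 418 and 229.7 in the collecting ducts. Its difference was −5.99 ± 0.96 (SE, adjusted p = 3.41e-07). miR-200a-3p was at 34.1 and 0 against 147, 197 and 107 (difference −4.62, adjusted p = 3.05e-05). That value joins unlike libraries: it was −2.06 without the glomerulus of rat 3, where the call was lost (adjusted p = 0.5), and −7.19 without that of rat 1. miR-200b-3p had 69.3 and 14.7 against 494, 658 and 287 (difference −3.78, adjusted p = 3.78e-06), and miR-429, from the same locus, had 19.8 and 18.4 against 269, 322 and 203 (difference −3.77, adjusted p = 3.05e-05). The glomeruli agreed closely for miR-429 and less for miR-200b-3p, which was −4.86 without rat 1 and −2.70 without rat 3. miR-200b-5p, the low arm of its hairpin, had 5.40 and 0 against 9.42, 17.1 and 12.1 and was not called (adjusted p = 0.464).

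miR-31a-5p, known from squamous and other epithelia, gave the largest difference of the 188 miRNAs. It was at 0 in all runs of both glomeruli and at 257, 457 and 536 in the collecting ducts. Against the value that 3 reads over the group would give, 0.445, the glomerulus was at least 937-fold lower than the collecting duct mean of 417 ± 144 (SD, n = 3). The fitted difference was −8.64 ± 1.26 (SE, adjusted p = 2.51e-08), which depends on the added 1 because the glomeruli were at 0. The proximal tubules had 7.24, 3.15 and 4.02 and the thick ascending limbs 21.4, 9.82 and 41.4, so the collecting ducts stood above every other library.

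miR-205 and miR-9a-5p were highest in the collecting duct as well. miR-205, another epithelial miRNA that represses ZEB factors, had 8.73 and 5.97 in the glomeruli and 122, 201 and 161 in the collecting ducts (difference −4.37, SE 1.07, adjusted p = 0.00127). Between them lay 41.2, 10.4 and 17.8 in the proximal tubules and 17.2, 53.3 and 21.4 in the thick ascending limbs. miR-9a-5p, best known from neurons, had 0.896 and 0 against 57.1, 69.3 and 50.3 (difference −5.51, SE 1.60, adjusted p = 0.0109). Its other segments were low, with 0.700, 0.976 and 6.69 in the proximal tubules and 5.74, 6.10 and 9.76 in the thick ascending limbs. Without the glomerulus of rat 3 the call was lost for miR-205 (adjusted p = 0.0891) and miR-9a-5p (adjusted p = 0.314), at differences of −4.04 and −5.14, and miR-9a-5p lost it without that of rat 1 too (adjusted p = 0.0678). RefSeq names miR-31b opposite miR-31a-5p and miR-9b-3p opposite miR-9a-5p, and reads of these pairs cannot be told apart either.

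**Figure D2:**
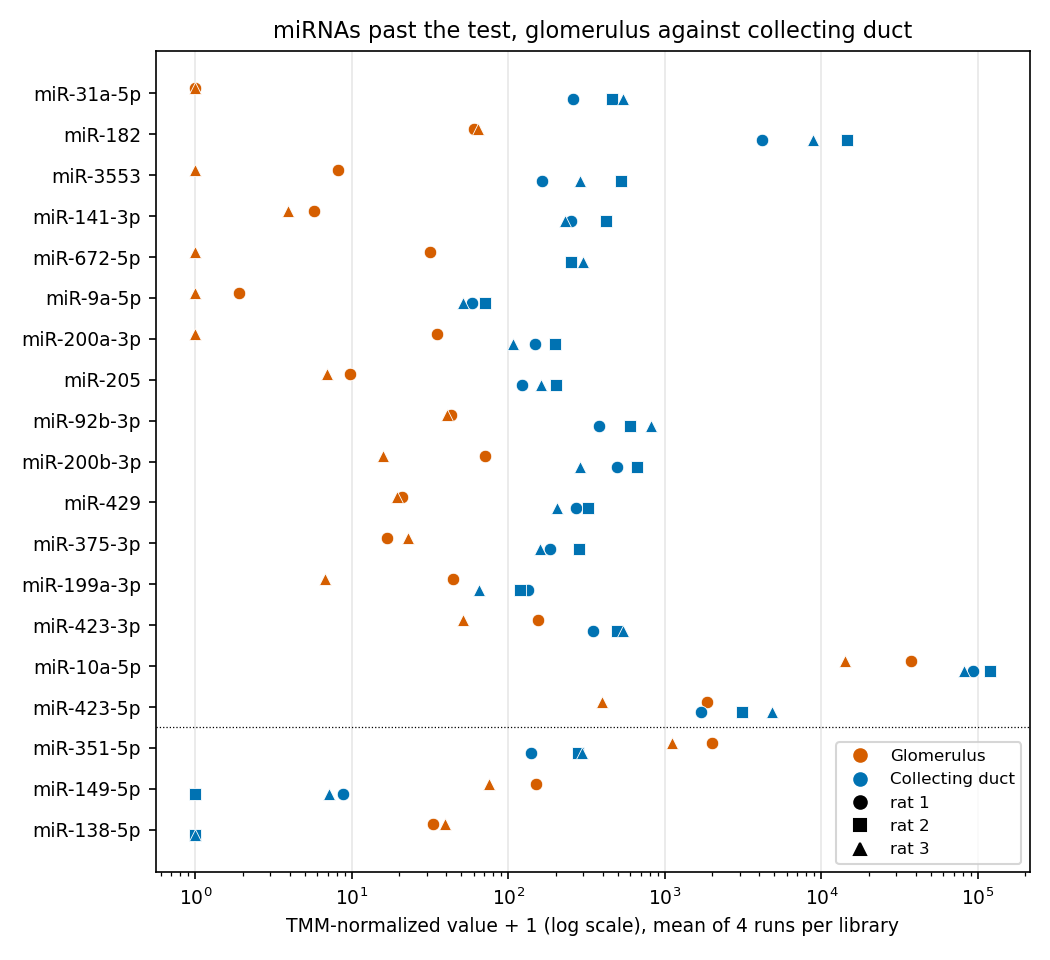
Normalized value + 1 (log scale) of the 19 called miRNAs in each glomerulus (orange) and collecting duct (blue) library, with the rat as marker shape; the 3 below the dotted line were higher in the glomerulus. For miR-31a-5p both glomeruli sit at a value of 0, drawn at 1, and miR-423-5p is the miRNA whose groups overlap.

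miR-375-3p, an epithelial and endocrine miRNA, was low in the glomerulus and was not highest in the collecting duct. Its values were 15.8 and 21.9 in the glomeruli, 182, 281 and 158 in the collecting ducts, 434, 625 and 1417 in the proximal tubules and 444, 696 and 627 in the thick ascending limbs. The glomerulus was lower than the collecting duct, at a difference of −3.40 ± 0.66 (SE, adjusted p = 2.74e-05). The collecting duct was in turn lower than the proximal tubule, at −1.85 (adjusted p = 4.23e-05), and than the thick ascending limb, at −1.52 (adjusted p = 0.0025). The skin and epithelial miRNAs miR-203a-3p and miR-203b-3p, set in 1 list with it, had differences of −2.45 and −1.73 that were not called (adjusted p = 0.372 and 0.678) at collecting duct values of at most 16.0.

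miR-672-5p was lower in the glomerulus, with 30.7 and 0 against 249, 248 and 299, and the collecting duct values lay close together. The difference was −5.57 ± 0.85 (SE, adjusted p = 8.57e-08), but −3.09 without the glomerulus of rat 3 (adjusted p = 0.0362) and −8.04 without that of rat 1. With both segments fitted alone the call was lost (adjusted p = 0.0804). Its gene lies within the span of Nexmif on chromosome X in RefSeq.

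The miR-17/92 paralog clusters, known for cell growth, gave 1 call among 10 measured members. All 10 were below 0, with a median of −1.04, but 1, 2 and 4 of them turned above 0 under the 3 rescalings. The called member was miR-92b-3p, with 41.8 and 39.7 in the glomeruli and 376, 597 and 811 in the collecting ducts (difference −3.79, SE 0.70, adjusted p = 1.07e-05). Its glomerular values were nearly equal, and the difference was −3.81 and −3.76 without rats 1 and 3. The miRNAs with the same seed did not separate in this way. miR-92a-3p had 40.9 and 12.3 against 40.5, 75.4 and 51.2 (adjusted p = 0.515), and miR-25-3p 311 and 175 against 222, 323 and 262 (adjusted p = 0.927).

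Both arms of the miR-423 hairpin, which lies within the span of Nsrp1, were lower in the glomerulus. miR-423-3p had 154 and 49.9 against 348, 491 and 536, a difference of −2.37 ± 0.67 (SE, adjusted p = 0.00832). miR-423-5p had 1861 and 397 against 1701, 3087 and 4834, and the glomerulus of rat 1 lay above the collecting duct of rat 1. Its difference of −1.78 (adjusted p = 0.0326) became −1.87 with the replicate block (adjusted p = 0.0622) and −0.66 without the glomerulus of rat 3 (adjusted p = 0.957), and no rescaling kept the call. miR-423-3p kept it under the block, but without the glomerulus of rat 3 was at −1.54 (adjusted p = 0.589).

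miR-199a-3p, a miRNA of fibroblasts and other mesenchymal cells, was the remaining call. It had 43.3 and 5.68 in the glomeruli and 132, 117 and 64.1 in the collecting ducts, close to the 91.4, 64.1 and 113 of the proximal tubules and 122, 34.8 and 117 of the thick ascending limbs. The difference of −2.63 (adjusted p = 0.0375) lost its call under the replicate block (adjusted p = 0.0578) and, at −1.20, without the glomerulus of rat 3 (adjusted p = 0.957). The other arm, miR-199a-5p, was at −0.74 (adjusted p = 0.836).

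The 16 lower miRNAs could differ because the glomerulus was low, because the collecting duct was high, or both. They were sorted by whether contrasts with the other tubule segments passed the test. The glomerulus contrasts rest on 2 libraries, so a miRNA outside a set was not shown to be level there. These contrasts also reuse the libraries that chose the 16, which favours passing them. Passing against both segments was not counted over all 188 miRNAs, so the counts that follow have no baseline. Of the 16, 7 were also lower in the glomerulus than in both proximal tubule and thick ascending limb, and 7 were higher in the collecting duct than in both. The first were miR-182, miR-3553, miR-672-5p, miR-200a-3p, miR-200b-3p, miR-429 and miR-375-3p. In the second were miR-182 again, miR-31a-5p, miR-9a-5p, miR-205, miR-92b-3p and both arms of miR-423. Hence miR-182 was the miRNA in both sets, with 1385, 2613 and 6072 in the proximal tubules and 2101, 3373 and 2299 in the thick ascending limbs, between the glomerular and most collecting duct values. In neither set were miR-10a-5p, miR-141-3p and miR-199a-3p. For miR-31a-5p and miR-205, outside the first set, both glomeruli still lay below every proximal tubule and thick ascending limb library. This did not hold for miR-9a-5p, miR-92b-3p or the arms of miR-423. Over all 188 miRNAs, 11.7% differed between glomerulus and proximal tubule (9.04% lower and 2.66% higher in the glomerulus) and 8.51% between glomerulus and thick ascending limb (6.38% lower, 2.13% higher). Between collecting duct and proximal tubule 20.2% differed (10.6% higher and 9.57% lower in the collecting duct), and between collecting duct and thick ascending limb 9.57% (7.98% higher, 1.6% lower).

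The contrasts with the collecting duct share its libraries, so their values are set side by side. For miR-141-3p the collecting duct was higher than the proximal tubule by 3.54 (adjusted p = 4.99e-08), while its difference of 1.45 from the thick ascending limb was not called (adjusted p = 0.0624). The glomerulus was lower than the thick ascending limb for this miRNA, at −4.53 (adjusted p = 0.000178), and not called against the proximal tubule, at −2.44 (adjusted p = 0.087). Its values were 23.4, 6.85 and 81.9 in the proximal tubules and 113, 69.5 and 149.6 in the thick ascending limbs, all above the glomeruli and below the collecting ducts. For miR-31a-5p the collecting duct was higher than the thick ascending limb by 4.22 (adjusted p = 3.83e-06) and the proximal tubule by 6.33 (adjusted p = 5.07e-13). For miR-200b-3p and miR-429, by contrast, the collecting duct differed from the thick ascending limb by 0.78 and 0.77, which were not called (adjusted p = 0.201 and 0.281).

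**Figure D3:**
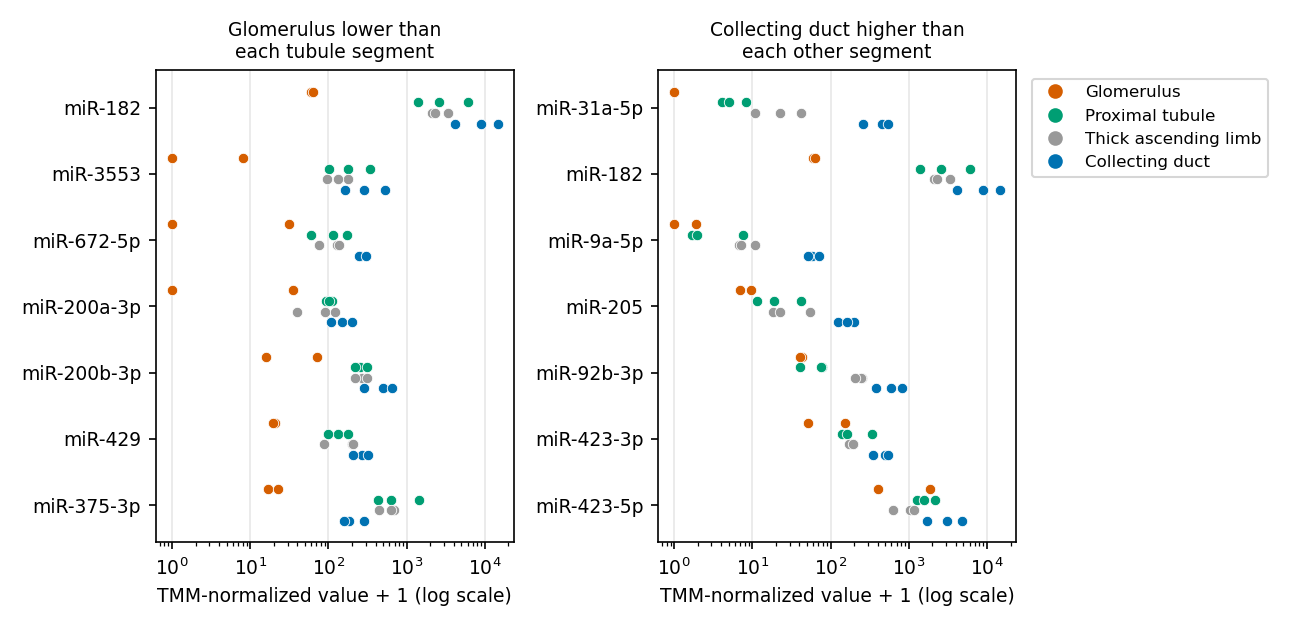
Normalized value + 1 (log scale) by library in the 4 segments for the 7 miRNAs lower in the glomerulus than in each tubule segment (left) and the 7 higher in the collecting duct than in each other segment (right). miR-182 stands in both panels, and for miR-375-3p the collecting duct lies below the other tubule segments.

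Of the 3 miRNAs higher in the glomerulus, miR-351-5p was the most abundant. It comes from a cluster on chromosome X with miR-322, miR-503 and miR-450a, known from growing and mesenchymal cells. Its values were 1999 and 1117 in the glomeruli and 137, 279 and 295 in the collecting ducts, with no overlap. The difference was 2.73 ± 0.63 (SE, adjusted p = 0.00056). Proximal tubules (229, 421 and 232) and thick ascending limbs (139, 194 and 214) stayed below both glomeruli, and the glomerulus was higher than each by 2.40 (adjusted p = 0.00275) and 3.07 (adjusted p = 0.000107). Rescaling raised the difference from the collecting duct to between 3.34 and 3.94, called each time.

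miR-450a-5p of the same cluster had 334 and 170.5 against 34.2, 45.6 and 76.9, also without overlap. Its difference of 2.25 ± 0.91 (SE) was not called on the deposited values (adjusted p = 0.12), and was called under all 3 rescalings, at 2.85 to 3.11. miR-322-5p, the third measured member, was low and overlapped, with 25.6 and 5.66 against 14.3, 9.92 and 19.6 (adjusted p = 0.969). The cluster therefore held 1 call among 3 members and a median of 2.25, and its summed value was 2358 and 1293 against 186, 334 and 392.

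Although miR-351-5p shares its seed with miR-125a-5p and miR-125b-5p, these went the other way in value. miR-125a-5p had 3255 and 981 against 3121, 4573 and 3909.8 (difference −1.11, adjusted p = 0.286) and miR-125b-5p 186 and 70.3 against 218, 322 and 209 (difference −1.09, adjusted p = 0.372). Neither was called, and each stayed below 0 under the 3 rescalings, although quantile normalization set miR-125b-5p at −0.02. Added over the 3 miRNAs, values with this seed overlapped between the segments, while as shares of the total they did not, with 3.30% and 2.80% in the glomeruli against 1.89%, 2.03% and 2.36% in the collecting ducts.

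miR-149-5p and miR-138-5p were higher in the glomerulus at low values. miR-149-5p, whose gene lies within the span of the proteoglycan gene Gpc1, had 149 and 73.7 against 7.78, 0 and 6.11 (difference 4.77, SE 1.57, adjusted p = 0.0326). miR-138-5p, known from neurons, had 31.7 and 38.2 in the glomeruli and 0 in all runs of the 3 collecting ducts. Against 3 reads over the group, a value of 0.287, the glomerular mean of 35.0 ± 4.57 (SD, n = 2) was at least 122-fold higher (fitted difference 5.09, SE 1.75, adjusted p = 0.0436). Both miRNAs separated the segments in every library, yet their calls were lost under several settings. With the replicate block miR-149-5p was at 3.97 (adjusted p = 0.187) and miR-138-5p at 4.73 (adjusted p = 0.158), and neither call held without the glomerulus of rat 1 (adjusted p = 0.296 and 0.211) or of rat 3 (adjusted p = 0.363 and 0.506). Under the 3 rescalings both were called. These 2 miRNAs, like miR-31a-5p, miR-205 and miR-9a-5p above, were listed because earlier results on these data had shown them, so their count is no independent evidence. miR-338-3p, outside the lists and named after its values were seen, was also at 0 in every collecting duct, at a mean of 18.6 ± 3.74 (SD, n = 2) in the glomeruli, and was not called (adjusted p = 0.172).

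miRNAs known from the other cell types of the glomerulus did not pass the test on the deposited values. Of 3 endothelial miRNAs none was called. The arms of miR-126a, which is made from an intron of the endothelial gene Egfl7, had 5449 and 3997 against 2489.8, 2858 and 1759.9 for miR-126a-5p (difference 1.00, adjusted p = 0.35) and 840.4 and 302 against 222, 313 and 175 for miR-126a-3p (difference 1.12, adjusted p = 0.372). For miR-126a-5p both glomeruli lay above every collecting duct, while for miR-126a-3p the glomerulus of rat 3 fell within the collecting duct range. miR-221-3p had 26.1 and 0.483 against 47.1, 60.0 and 47.1, in the other direction (difference −3.13, adjusted p = 0.159). The miRNAs of smooth muscle and mesangium behaved alike, with 16324 and 10321 against 6604, 7819.9 and 8072 for miR-143-3p (difference 0.79, adjusted p = 0.476) and 64.0 and 60.9 against 30.7, 33.3 and 8.01 for miR-145-5p (difference 1.59, adjusted p = 0.489), neither overlapping.

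These calls depended on the scaling. After rescaling by the median of ratios, to the same total and by quantiles, miR-126a-5p was higher in the glomerulus by 1.61, 1.87 and 1.62, miR-126a-3p by 1.72, 1.98 and 1.97, and miR-143-3p by 1.40, 1.66 and 0.78, all past the test. miR-145-5p was not called in any of the 3. As shares of the summed values, which multiplying a whole library does not change, miR-126a-5p held 3.30% and 5.16% in the glomeruli against 1.36%, 1.12% and 0.941% in the collecting ducts, and miR-143-3p 9.89% and 13.3% against 3.59%, 3.06% and 4.31%. A share also moves with miR-10a-5p, which held the largest share of the collecting duct total.

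The proximal tubule miRNAs miR-192-5p and miR-194-5p served as a check for tubular material in both captures. miR-192-5p had 1414 and 761 in the glomeruli and 1238, 2298 and 1837 in the collecting ducts, against 21065, 26006 and 20807 in the proximal tubules. miR-194-5p had 10.1 and 15.8 and 21.4, 42.4 and 28.1 against 233, 360.4 and 323. Both were present in the glomeruli far below the proximal tubule level, and neither differed past the test between glomerulus and collecting duct (adjusted p = 0.515 and 0.525). None of the 5 leukocyte miRNAs was called, and their summed value was 1292 and 658 in the glomeruli and 495, 612 and 559 in the collecting ducts. miR-146a-5p made up most of it, with 1056 and 516 against 297, 373 and 319.9 (difference 1.16, adjusted p = 0.305), and was higher in the glomerulus under each rescaling. The defining leukocyte miRNA miR-142-5p was low in every library, at 15.3 and 31.4 against 25.3, 13.4 and 6.22, and miR-155-5p was at 0 in both glomeruli and at 5.62, 5.12 and 17.7 in the collecting ducts. Their part in the results was not tested. No red blood cell miRNA of the list is among the 188. The muscle miRNA miR-499-5p and the neuronal miRNA miR-132-3p, with at most 4.84 and 18.6 in a glomerulus or collecting duct library, were not called. Other miRNAs known from neurons or endocrine cells were called, with miR-9a-5p and miR-375-3p lower in the glomerulus and miR-138-5p higher.

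**Figure D4:**
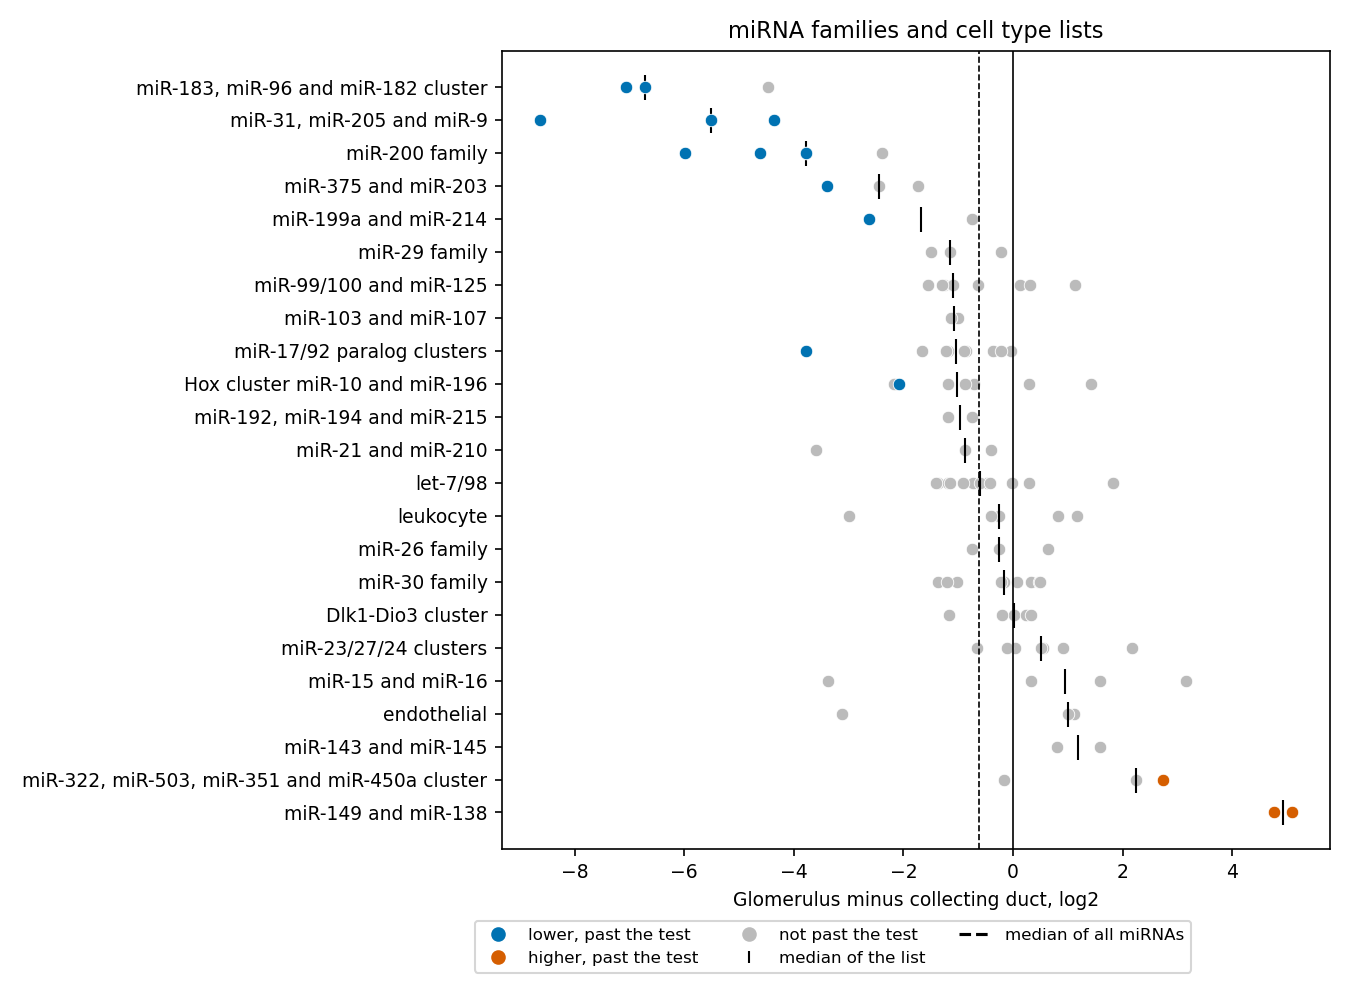
Difference between glomerulus and collecting duct (log2) for the members of each list with at least 2 measured miRNAs, with called members in colour, the median of each list as a tick and the median of all miRNAs as a dashed line. The list named for miR-183, miR-96 and miR-182 was measured through miR-182, miR-96-5p and miR-3553, so its median of −6.71 is the value of miR-3553; the miR-200 family lies at −3.78, and 14 of the 23 lists hold no called member.

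The remaining families gave few calls or none on the deposited values. In the miR-23/27/24 clusters, known in endothelium and cardiac muscle, none of 7 members was called, at a median of 0.52. miR-23b-3p came nearest, with 375 and 132 against 37.8, 53.6 and 58.3 and no overlap (difference 2.17, adjusted p = 0.12). It was called under the 3 rescalings at 2.77 to 3.03, as was miR-23a-3p, which has the same seed, at 1.52 to 1.77. The abundant miR-27b-3p was called higher by the median of ratios and to the same total, and not by quantiles. The genes of miR-23b, miR-24 and miR-27b lie together on chromosome 17, and the 4 miRNAs measured from there were all above 0, as deposited and after each rescaling.

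let-7/98, tumour suppressor miRNAs found in most tissues, gave no call among 14 members (median −0.61). The 9 with the let-7 seed were all below 0 as deposited, but 3, 5 and 3 of them were above 0 after the 3 rescalings and quantile normalization set 1 lower past the test, so their direction depended on the scaling. Similarly no member of the miR-30 family (9 measured, median −0.16), the miR-99/100 and miR-125 families (9, −1.09), the miR-29 family (3, −1.16), the miR-26 family (3, −0.25), miR-103 and miR-107 (2, −1.07), miR-15 and miR-16 (4, 0.95) or the Dlk1-Dio3 cluster (5, 0.02) was called on the deposited values. After rescaling by the median of ratios and to the same total, miR-30d-5p was higher in the glomerulus by 0.94 and 1.20, and miR-16-5p by 0.93 and 1.19. Quantile normalization called neither, and instead called miR-30a-3p lower (−0.82) and miR-195-5p higher (3.80). Nor were miR-204-5p (difference 0.65), miR-21-5p (−0.88) and the hypoxia miRNA miR-210-3p, which had 4.76 and 0 against 23.4, 42.0 and 22.4 (adjusted p = 0.13). Rescaled by the median of ratios and to the same total, miR-210-3p was called lower, at −3.50 (adjusted p = 0.0244) and −3.26 (adjusted p = 0.0439), and by quantiles it was not (adjusted p = 0.0591). The values of miR-210-3p are identical to those of miR-3574 on its opposite strand in every run, 1 of 4 such pairs in the table, and cannot be assigned to either. The same holds for let-7a-5p and miR-3596a. Values were not identical for miR-125b-5p and miR-3588, nor for miR-130a-3p and miR-3590-5p, which lie on opposite strands as well. In the Hox cluster list of 8, miR-10a-5p was the call, the median was −1.03, and miR-196b-5p lay on the other side with 73.6 and 57.3 against 36.9, 29.8 and 11.3 (difference 1.42, adjusted p = 0.468). It was called higher to the same total, at 2.27 (adjusted p = 0.0323), and by quantiles, at 2.46 (adjusted p = 0.0215), but not by the median of ratios (adjusted p = 0.0519).

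Features outside the measured values gave a further view of the miRNAs. Sequence and position are given for the 172 matched miRNAs, so the arm pairs of miR-200b, miR-423, miR-30d and miR-30e and the seeds of miR-200a-3p, miR-200b-3p and miR-429 are not in the counts that follow. Among 33 matched hairpins with both arms measured, 23 had arms on the same side of 0. Since 123 of all 188 miRNAs lay below 0 and 64 above, many pairs of unrelated miRNAs would share a side too. In 2 of them, miR-10a and miR-199a, a called arm was paired with an uncalled one of the same sign. Of 22 seeds shared by at least 2 matched miRNAs, 6 had summed values that did not overlap between segments, against 36.7% of single miRNAs. Sums were lower in the glomerulus for the seeds of miR-25/92, miR-29, miR-103 (with miR-107) and miR-19, and higher for those of miR-146 and miR-23. As shares of the total, the directions were the other way round in number. Then 12 of the 22 did not overlap, 10 higher in the glomerulus and 2 lower, the last being the seeds of miR-25/92 and miR-103. Non-overlap of single miRNAs was not counted on this scale, so these counts have no baseline. Every share also moves with that of miR-10a-5p, which averaged 20.4% in the glomerulus and 47.0% in the collecting duct. Across both scales the same direction without overlap held for these 2 seeds and for those of miR-146 and miR-23. Among 20 groups of matched miRNA genes within 10 kb on 1 strand, the group of miR-17, miR-19 and miR-92a on chromosome 15 had all 5 members below 0 under every scaling, and that of miR-195 and miR-497 on chromosome 10 all 3 above, with no call among them on the deposited values. In the first, miR-17-5p, miR-19a-3p and miR-20a-5p overlapped between segments, with at most 22.1 in any of these libraries. Genes of miR-17-5p, miR-19b-3p and miR-92a-3p also lie on chromosome X, so their values cannot be assigned to 1 locus.

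Across the alternatives, 7 miRNAs were called lower in the glomerulus under each of 16 settings and without each of the 11 libraries in turn. They were miR-31a-5p, miR-182, miR-3553, miR-141-3p, miR-375-3p, miR-429 and miR-92b-3p. For miR-351-5p the call held without any of the 11 libraries (adjusted p of at most 0.0478) and was lost when glomerulus and collecting duct were fitted alone (adjusted p = 0.0838) and without the variance trend (adjusted p = 0.0662). When 1 glomerulus library was left out, the other was assumed to vary as estimated from both.

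**Figure D5:**
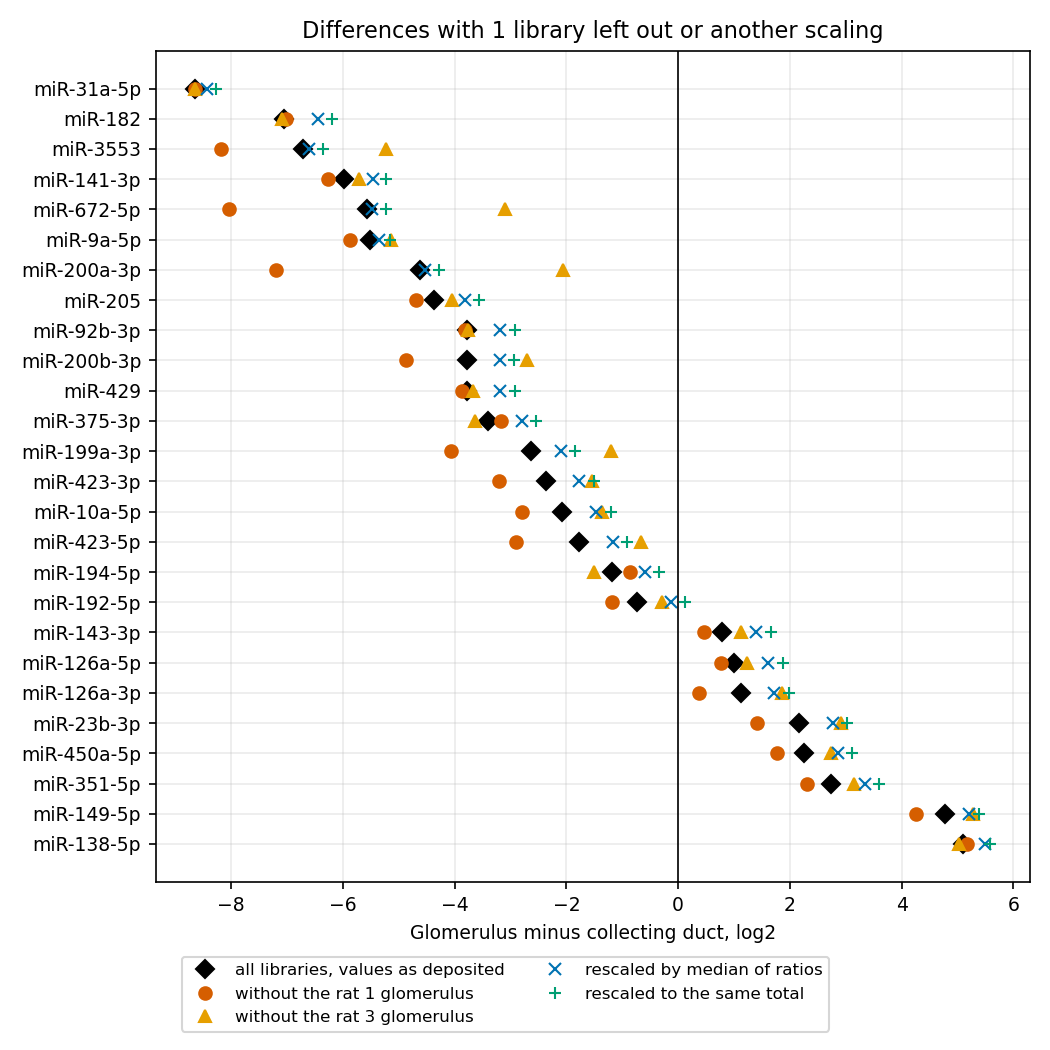
Difference between glomerulus and collecting duct (log2) of 26 named miRNAs as deposited, without each glomerulus library, and under 2 rescalings. miR-672-5p and miR-200a-3p spread widely between the glomerulus libraries, miR-182 stays between −7.09 and −6.19, and rescaling moves most miRNAs to the right by a like amount.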

How the data were processed

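Small RNA from laser-captured rat nephron segments was sequenced as 50 bp single-end reads of TruSeq small RNA libraries, per the labels' protocols. The deposited normalized signal was made by the authors by TMM after removal of low counts, per the file name. The submitters' processing notes name Partek 6.0, Bowtie2 2.2.5, Bowtie 1.0.0 and build rn6. The miRNA annotation used and any use of strand in counting are not given in the sources used here. The table holds 188 miRNAs by 4 runs for each of 11 libraries.

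Since the signal is not a count, log2(value + 1) was averaged over the runs of a library and fitted with limma 3.58.1 in R 4.3.3. The fit took all 11 libraries by segment, with a variance trend and a variance weight for each segment, since glomerulus libraries spread more (for the 65 miRNAs whose mean reached 100, the median SD of log2 values was 0.811, against 0.344 in collecting duct). The weights were 0.342 for glomerulus and 1.137 for collecting duct. Calls had a two-sided Benjamini-Hochberg adjusted p below 0.05 over all 188. Low values were whole multiples of 1 read's worth in 88.3% to 99.0% of cases per run (within 0.03 of a whole number, up to 30 reads), which gave estimated depths of 147996 to 1296993 reads. Floors and estimated reads cover counting error only, and reads are not independent molecules. The procedure was tested on simulated data.

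Rat numbers pair the libraries, since the labels give the same rat to several segments. Deviations of same-rat libraries from their segment means correlated at a median of 0.0711 (15 pairs, 12 above 0), against −0.0393 for different rats (30 pairs, 8 above 0). Glomerulus and collecting duct themselves correlated at −0.0897 in rat 1 and −0.0323 in rat 3. Deviations within a segment sum to 0, so same-rat and different-rat values are not independent of each other. The alternatives were the replicate block, no weights, both segments alone, no trend, pseudocounts of 0.5 and 5, a mean of at least 10, 3 rescalings, each flow cell, the log2 of the mean run, and leaving out each library. Named miRNAs were the called ones whose groups did not overlap, list members, the 5 most abundant of each segment, and hairpin or seed partners of those called. The comparison, members and lists were chosen with earlier results of these data known. Sequences, seeds and neighbours came from RefSeq tables of build GRCr8, of which no coordinates are printed because the files use rn6.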

Additional observations from a re-analysis of the deposited data

How the results depend on the processing

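On the deposited values 19 miRNAs were called, 16 lower and 3 higher in the glomerulus, and the cause of the changes below was not tested. None of these 19 reversed its direction past the test in any alternative that tested it. Among the other named miRNAs, reversal was followed through every alternative for some only. With the replicate block, which pairs segments of 1 rat, 14 were called (13 lower, 1 higher), all among the 19. The block ended the calls given beside miR-10a-5p, miR-423-5p, miR-199a-3p, miR-149-5p and miR-138-5p and changed no other call. Without weights 31 were called (8 higher), and without weights but with the block 28 (7 higher). Glomerulus and collecting duct fitted alone gave 10 (9 lower, 1 higher). Rescaling by the median of ratios, to the same total and by quantiles gave 33, 33 and 32 calls, of which 15, 17 and 17 were higher. The count of higher calls was 1 without the variance trend, where it was miR-138-5p, and also 1 with a pseudocount of 0.5, with a mean of at least 10, and in flow cells A, B and D alone, where it was miR-351-5p. Leaving out 1 library at a time gave 10 to 22 calls, 9 to 21 lower and 1 to 3 higher. The lowest count came without the glomerulus of rat 3. Counting the 4 pairs of identical columns once, an alternative chosen after seeing the data, gave the same 19 calls among 184 miRNAs. With 2 glomerulus libraries, 1 of them at 147996 estimated reads, a difference at low values could pass the test only where it was large, and 22 miRNAs were at 0 in all glomerulus runs and 8 in all collecting duct runs.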

Other observations

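Further miRNAs did not pass the test on the deposited values. miR-3557-5p had 1484 and 600.2 in the glomeruli and 2498, 3362 and 2579 in the collecting ducts, without overlap (difference −1.57, limma adjusted p = 0.0593). RefSeq sets it over 21 bases of miR-378a-3p on the other strand, so reads of these miRNAs cannot be told apart. miR-3586-3p had 673 and 245 against 239.9, 469 and 283, with overlap (difference 0.35, adjusted p = 0.836) and was higher in the glomerulus under all 3 rescalings. miR-195-5p, of the miR-15/16 seed family, had 28.6 and 20.5 against 4.63, 4.52 and 0, without overlap (difference 3.16, adjusted p = 0.312). The first 2 were named after their values were seen.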
